A study of Mus musculus with 5 samples.

Results

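The genes described here are 37 genes of the DNA damage response and of DNA repair, chosen by name, in RNA Polymerase II ChIP-Seq libraries of mouse Th2 cells. A member was accepted where the gene table, which holds 11608 genes, gave its name on the chromosome and at the place where the gene lies in mm9. By this rule 20 of the 37 genes had a row. Another 12 genes, Polb, Ung, Xrcc4, Xrcc5, Prkdc, Brca1, Brca2, Bard1, Fancd2, Blm, Wrn and Ddb2, had a row at their own place that carried the name of another gene, while their own name stood at another place, and these rows were recognised by coordinates and transcript accession. The last 5, Xrcc1, Lig4, Atm, Atr and Chek2, had no row. The names of the table were shifted where neither Parp14+/+ library had an enriched interval, so the 20 genes with an accepted row all had an interval in a Parp14+/+ library and the other 12 had none there. The accepted rows therefore lean towards genes with signal in Parp14+/+ cells, and the values over all 32 rows are given beside the counts.

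Naive CD4+CD62L+ T cells from spleens of C57BL/6 mice were activated for 3 d under Th2 conditions with IL-4 at 10 ng/ml and expanded for 4 d with IL-2 and IL-4. The 4 conditions were Parp14+/+, Parp14+/+ + PJ34, Parp14-/- and Parp14-/- + PJ34, each with 1 library. Both Parp14+/+ conditions are wild-type cells, and the Parp14-/- mice carry the deletion in all tissues on the C57BL/6 background. PJ34 inhibits ADP-ribosyltransferases of the PARP family in general and not PARP-14 alone. It was added at 10 µM after differentiation by the labels. They give this for every sample, the untreated ones and Input included, so the 4 conditions were taken from the sample titles. The paper's methods state a lower dose, given in the culture. The Input library was a mixture of both genotypes and gave no value per gene. Chromatin was precipitated with an antibody to RNA Polymerase II phosphorylated at serine 2 of its tail, the form that travels along genes during elongation. The measure is the average peak height. In each active region of a gene the largest pile of overlapping fragments was counted, and these counts were averaged per gene. It follows elongating polymerase and not RNA or protein, and a smaller share of cells with a gene active cannot be told apart from less polymerase per cell. How many mice or cultures went into a library is not given in the sources used here.

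Cells answer DNA lesions with sensors and kinases that mark the break, with p53 and its targets that halt the cell cycle, and with separate repair routes for single-strand breaks and damaged bases, double-strand breaks, mismatches and bulky adducts. Some enzymes of the PARP family bind strand breaks and recruit repair factors, and inhibitors such as PJ34 were made against them. Activated T cells divide fast, and their replication is a source of such lesions.

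The library totals were alike by construction, since the authors reduced every library to the same number of alignments, and the libraries held 8841 to 12014 enriched intervals. The T cell and Th2 markers Cd3e, Cd3g, Cd4, Gata3, Il4, Il13 and Il4ra all had an interval, at peak heights of 4 to 160. Of 5 B cell markers 1 had an interval (Cd79a, at 28 to 38, the same 4 heights as Rps19), as did 2 of 3 myeloid markers with a row (Csf1r at 5.5 to 8.5 and Cd68 at 52 to 80, the same 4 heights as Eif4a1, Mpdu1 and Sox15, with Itgam at 0 to 4), and Cd8a had none. Both Th1 markers with a row, Tbx21 and Ifng, had an interval in all 4 libraries at heights of 14 to 28. The summed height of the Th2 list was 315.5, 271, 275 and 223.5 in the order of the conditions above, and that of the myeloid list was 89, 64.5, 70 and 65.5, most of it from Cd68. The heights of Cd79a and Cd68 cannot be told apart from those of the genes that share them. The part of these markers in the results was not tested. Parp14 itself had heights of 8, 11, 6.67 and 6.67, and a height over the gene does not tell whether the protein is made.

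The sequences shown first are the 200 bases before the start of the 3 genes whose tallest point lay at the start in at least 2 libraries and whose values are discussed in detail, Gadd45b, H2afx and Ogg1. They are read from mm9 in the direction of transcription.
Gadd45b, chr10:80392636-80392835, plus strand: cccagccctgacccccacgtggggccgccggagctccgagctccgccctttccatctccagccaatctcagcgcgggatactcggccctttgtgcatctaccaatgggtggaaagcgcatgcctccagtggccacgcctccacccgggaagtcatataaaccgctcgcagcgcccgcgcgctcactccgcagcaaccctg
H2afx, chr9:44142598-44142797, plus strand: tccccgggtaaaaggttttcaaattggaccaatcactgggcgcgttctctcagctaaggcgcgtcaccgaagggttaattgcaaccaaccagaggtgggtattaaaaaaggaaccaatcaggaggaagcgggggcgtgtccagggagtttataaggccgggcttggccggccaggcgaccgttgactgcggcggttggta
Ogg1, chr6:113276805-113277004, plus strand: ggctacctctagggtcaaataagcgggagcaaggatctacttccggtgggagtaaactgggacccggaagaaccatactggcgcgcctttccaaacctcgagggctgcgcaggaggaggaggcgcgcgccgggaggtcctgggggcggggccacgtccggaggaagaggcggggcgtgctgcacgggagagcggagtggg
Their GC content was 66.5%, 56% and 67%. None of the 3 windows held an E2F site (TTTGGCGC, TTTCCCGC, TTTCGCGC or TTTGCCGC), a STAT6-type palindrome (TTCNNNGAA or the same with a spacer of 4 bases) or a p53 half-site, on either strand.

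The p53 half-site, the decamer that p53 binds in pairs, was found in the RefSeq promoters (250 bases before to 50 after the start, GRCm38.p6) of 4 of the 29 members that the promoter table held, 13.8% against 9.55% of all genes in that table. The 4 were Trp53, Mdm2, Cdkn1a and Gadd45a, and all belong to the 5 genes of the p53 axis. In a wider window of mm9, 1000 bases before to 100 after the start, the shares were 27% of the 37 members and 29.4% of all genes. The stretches of 60 bases around the matches are shown with the half-sites in capitals. Cdkn1a, whose promoter is a classical target of p53, had 2 of them. They lay 73 to 64 and 51 to 42 bases before one of its RefSeq starts. That start is in GRCm38.p6 and was not matched to the start in the gene table (29230720 in mm9), from which the intervals are mapped below. The decamer that directly follows the second match, tgacatgttc, misses the pattern at its first base and so was not counted. Which of these decamers p53 binds as a pair, if any, was not tested.
Trp53, chr11:69580259-69580318, plus strand: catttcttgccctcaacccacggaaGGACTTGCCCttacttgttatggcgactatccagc
Mdm2, chr10:117710910-117710969, minus strand: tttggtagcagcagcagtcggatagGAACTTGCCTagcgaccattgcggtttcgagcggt
Cdkn1a, chr17:29090892-29090951, plus strand: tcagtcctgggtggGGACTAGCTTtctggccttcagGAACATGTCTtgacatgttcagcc
Gadd45a, chr6:67037413-67037472, minus strand: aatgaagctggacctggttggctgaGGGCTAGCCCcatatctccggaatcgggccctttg
An E2F site, the motif of the factors that drive genes of DNA replication, was found in 5 of the 29 promoters (17.2%), against 2.6% of all genes, and in 24.3% against 5.82% in the wider window. In the narrow window these were Xrcc6, Chek2, Brca2, Bard1 and Msh6. The matches of Xrcc6 and Brca2 are shown, since Xrcc6 had one of the larger differences between genotypes and Brca2 had no interval. Xrcc6 was not among the matches in the wider window. The mm9 annotation starts Xrcc6 at 81818265 and the gene table at 81846799, so the windows may lie at different starts. The intervals over Xrcc6 began at 81863851 or later. Their tallest points lay at 81870352 to 81871296, around the 3′ end of the gene (81870515). The part of the E2F match in the difference was not tested.
Xrcc6, chr15:82016297-82016356, plus strand: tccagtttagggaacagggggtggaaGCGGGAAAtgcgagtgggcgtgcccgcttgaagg
Brca2, chr5:150522427-150522486, plus strand: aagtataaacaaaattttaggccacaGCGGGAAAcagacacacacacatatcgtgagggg
A STAT6-type palindrome with a spacer of 3 bases was found in 0 of the 29 promoters and with a spacer of 4 bases in 0, against 9.55% and 8.01% of all genes. In the wider window the shares were 37.8% against 29.6% of all genes for the spacer of 3, and 27% against 25.3% for the spacer of 4. A match is a string of letters and does not show that a factor binds.

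Whether an enriched interval lay over a gene was counted by repair route, as a description with no test. An interval in at least 1 of the 4 libraries lay over 21 of the 37 genes (56.8%), against 33.1% of the 22225 protein coding genes of the mm9 annotation. All 5 genes of the p53 axis had one, as did 5 of 6 genes of mismatch and nucleotide excision repair, 4 of 6 of single-strand break and base excision repair and 4 of 7 damage sensors and kinases. Of 6 genes of non-homologous end joining 2 had an interval, Xrcc6, which encodes the Ku70 subunit that caps broken ends, and Trp53bp1, which steers breaks to this route. Of 7 genes of homologous recombination, the Fanconi pathway and the RecQ helicases 1 had an interval, Rad52, and Brca1, Brca2, Bard1, Fancd2, Blm and Wrn had none. The apical kinases Atm and Atr and the kinase Chek2 had none, whereas Chek1, the effector kinase of the replication checkpoint, had one in all 4 libraries. Among the further genes of the same pathways the shares were not the same as among these members. An interval lay over 10 of 22 other genes of double-strand break repair (45.5%) and over 15 of 27 of the Fanconi, mismatch and nucleotide excision routes (55.6%). It lay over 4 of 15 of base excision and single-strand break repair (26.7%), 11 of 17 of the damage checkpoint (64.7%) and 17 of 20 p53 targets and regulators (85%). The 21 members with an interval were shorter, with a median annotated length of 20131 bp against 70492.5 bp for the 16 without.

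Most of the 20 genes with an accepted row lay above the middle of the table, at heights of few fragments. Their median heights in the order of the conditions above were 11.25, 11.5, 9.5 and 8.66, against 8, 8.33, 8 and 7.4 over all genes. These 20 all had an interval, and over the genes with an interval in at least 1 library the medians were 9.25, 10, 9 and 8.5. The other 12 rows had heights of 1 to 12, with medians of 5, 6, 7.165 and 5.75, below those of all genes. The order was led by Gadd45b and Cdkn1a, followed by H2afx, Xrcc6 and Msh6. Gadd45b, a stress-induced gene linked to demethylation and growth arrest, stood above 98.3% to 99.4% of all genes in the 4 libraries. Cdkn1a, which encodes the cyclin-dependent kinase inhibitor p21 and is the best known target of p53, stood above 94.8% to 98.9%. In contrast, Trp53 itself had heights of 7, 6.5, 7 and 7, the flattest values of the p53 axis, and Gadd45a had heights of 6, 7, 5 and 5. Heights are compared between genes as peaks of fragments, which do not depend on gene length in the way a read count does, but the mean is taken over 1 to 4 active regions.

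**Figure D1:**
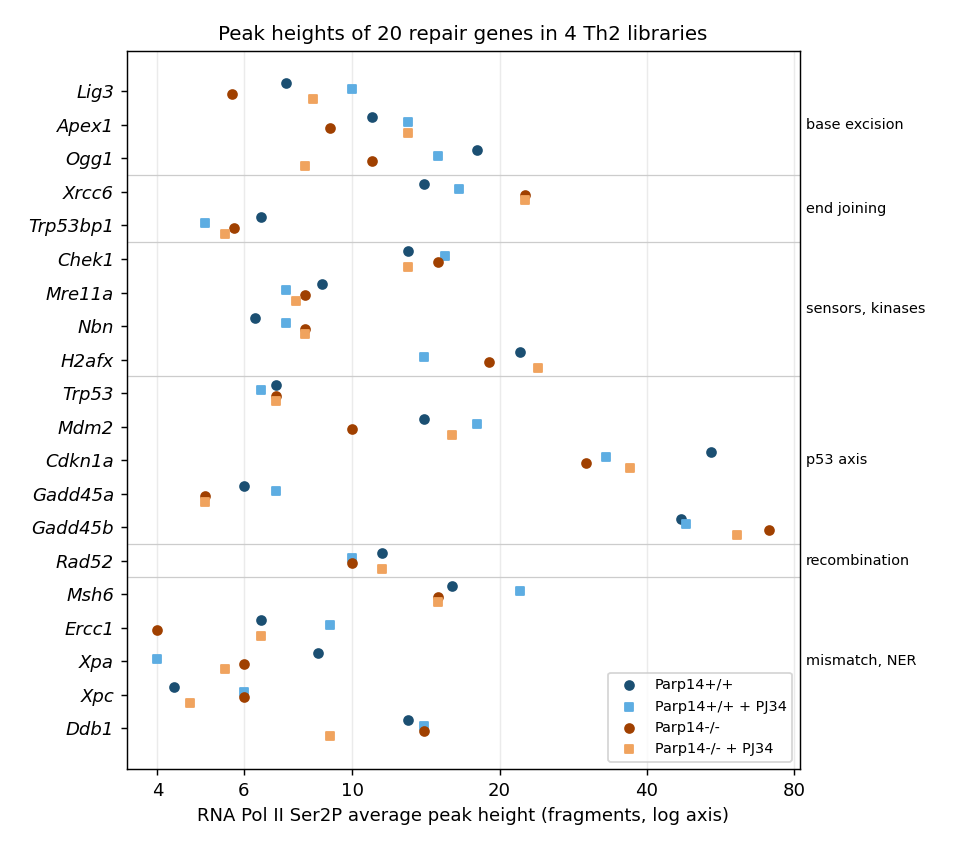
Average peak height (fragments, log axis) of the 20 genes with an accepted row in each of the 4 libraries, 1 point per library, grouped by role. Gadd45b and Cdkn1a lie at 30 to 71, and the other 18 genes at 4 to 24.

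Active regions were merged over neighbouring genes, so 8 of the 20 genes had the same 4 heights as another gene nearby. These were Apex1 (shared with Osgep and Tmem55b), Ogg1 (Camk1), Xrcc6 (Nhp2l1), H2afx (Dpagt1), Mdm2 (Cpm), Cdkn1a (LOC100042815), Msh6 (EG626920 and Fbxo11) and Ddb1 (Vwce). The value of these 8 genes cannot be told apart from that of the neighbour. Gadd45b shared its value with none.

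The first question was whether blocking ADP-ribosylation with PJ34 altered polymerase over the repair genes in Parp14+/+ cells. The p53 target Cdkn1a (chr17:29230720-29237667, plus strand) had a height of 54 without PJ34 and 33 with it, and H2afx and Xpa were also lower with PJ34, while none of the 20 genes passed the lower limit. A ratio without to with PJ34 above 1.4 or below 0.7 was taken as past the fold. The study set these limits for the ratio of the genotypes, and here they were applied to PJ34 as well, where the study used narrower ones. With 1 library per condition there is no test between conditions. Each ratio is given with a 95% interval, the exact binomial one for the 2 heights summed over active regions. It treats the heights as counts and covers counting error only.

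For Cdkn1a the ratio was 1.64 (1.04 to 2.61), the only one of the 20 whose interval lay apart from 1. Over all genes 1.32% had such an interval, and 7.38% of those whose taller library had a summed height of at least 50, the tall genes. H2afx (chr9:44142798-44144160, plus strand), the histone variant that is phosphorylated around double-strand breaks, had heights of 22 and 14 and a ratio of 1.57 (0.77 to 3.32). Xpa, the factor that verifies the lesion in nucleotide excision repair, had heights of 8.5 and 4 and a ratio of 2.12 (0.87 to 5.69). The intervals of H2afx and Xpa span 1, so neither difference exceeds counting error.

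Of the 20 genes 3 were above the fold and 0 below it, against 8.93% above and 13.9% below over all genes, and 6.95% and 10.3% over the genes with an interval in a Parp14+/+ library, the condition that the accepted rows also meet. The split depends on the limits. With 1.2 and 0.83 it was 4 above and 5 below, and Lig3, Msh6, Ercc1 and Xpc lay at 0.722 to 0.733, just inside the lower limit of 0.7. The median ratio was 0.896, below the 0.96 of all genes and of those with an interval, and 12 of the 20 genes were slightly higher with PJ34 and 8 lower. Over all 32 rows 5 were above and 3 below, and the median was 0.86. Among the 12 genes that share their heights with no other gene, 1 was above the fold (Xpa) and 0 below.

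By role, the 3 genes of base excision repair had ratios of 0.733 to 1.2. Lig3, the ligase that seals single-strand breaks, was at 7.33 and 10, and Apex1, the endonuclease that cuts at abasic sites, at 11 and 13. Msh6, which recognises mismatches, was at 16 and 22, with a ratio of 0.727 (0.357 to 1.45). The p53 antagonist Mdm2 was at 14 and 18, in the direction opposite to Cdkn1a, with a ratio of 0.778 (0.358 to 1.66). Gadd45b did not follow Cdkn1a either, with heights of 47 and 48 and a ratio of 0.98 (0.64 to 1.5).

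The same question was asked in Parp14-/- cells. Cdkn1a had heights of 30 and 37, and the genes past the fold were Ddb1, lower with PJ34, and Lig3, Apex1, Mdm2 and Ercc1, higher with it. In none of the 20 genes did the interval lie apart from 1, against 1.28% of all genes and 10.4% of the tall genes.

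Of the 20 genes 1 was above the fold and 4 were below it, against 16.2% and 8.87% over all genes and 14.3% and 5.66% over those with an interval in a Parp14+/+ library. With limits of 1.2 and 0.83 it was 3 above and 6 below. The median ratio of the genes was 1 and that of all genes 1.07 (1.08 over those with an interval), a shift of the whole table of 0.09 on the log2 scale, and of 0.12 over those with an interval. With each library scaled to remove this shift, the 20 genes still gave 1 above and 4 below, while the split over all genes turned from 16.2% above and 8.87% below to 10% and 13.7%. Over all 32 rows 3 were above and 5 below.

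Ddb1, part of the ligase that marks ultraviolet lesions, had heights of 14 and 9 and a ratio of 1.56 (0.627 to 4.07). Mdm2 had heights of 10 and 16 and a ratio of 0.625 (0.254 to 1.47) in the active region that it shares with Cpm. The tallest interval over Mdm2 itself was at 10 in both libraries, with a ratio of 1 (0.374 to 2.68). The 16 was thus not the height of an interval over Mdm2. Ercc1, a subunit of the nuclease that cuts 5′ of the lesion, was at 4 and 6.5, Lig3 at 5.67 and 8.33 and Apex1 at 9 and 13. All of these are differences of a few fragments, and counting error alone spans them. By the heights of the gene table, Lig3, Apex1, Mdm2 and Ercc1 were higher with PJ34 in both genotypes. Their ratios were 0.722 to 0.846 in Parp14+/+ and 0.615 to 0.692 in Parp14-/-. By the tallest interval over the gene in the tracks, Lig3 and Ercc1 kept this direction in both genotypes. Apex1 did not in Parp14+/+, at 11 without and 9 with PJ34, and Mdm2 was level in Parp14-/-, at 10 and 10. Of the 20 genes 0 were past the fold the same way in both PJ34 comparisons, against 3.7% of all genes.

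The response of Cdkn1a to PJ34 was lower with PJ34 in Parp14+/+ and higher with it in Parp14-/-. Its ratio of 1.64 in Parp14+/+ divided by that of 0.81 (0.484 to 1.35) in Parp14-/- was 2.02, with an exact conditional interval of 1.005 to 4.06. The interval barely leaves 1, and 0.931% of all genes had such a difference. The share among the tall genes, to which Cdkn1a belongs, was not computed. This comparison was added after the values had been seen. H2afx had the same order, with ratios of 1.57 and 0.792, a quotient of 1.98 and an interval of 0.737 to 5.39 that spans 1.

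**Figure D2:**
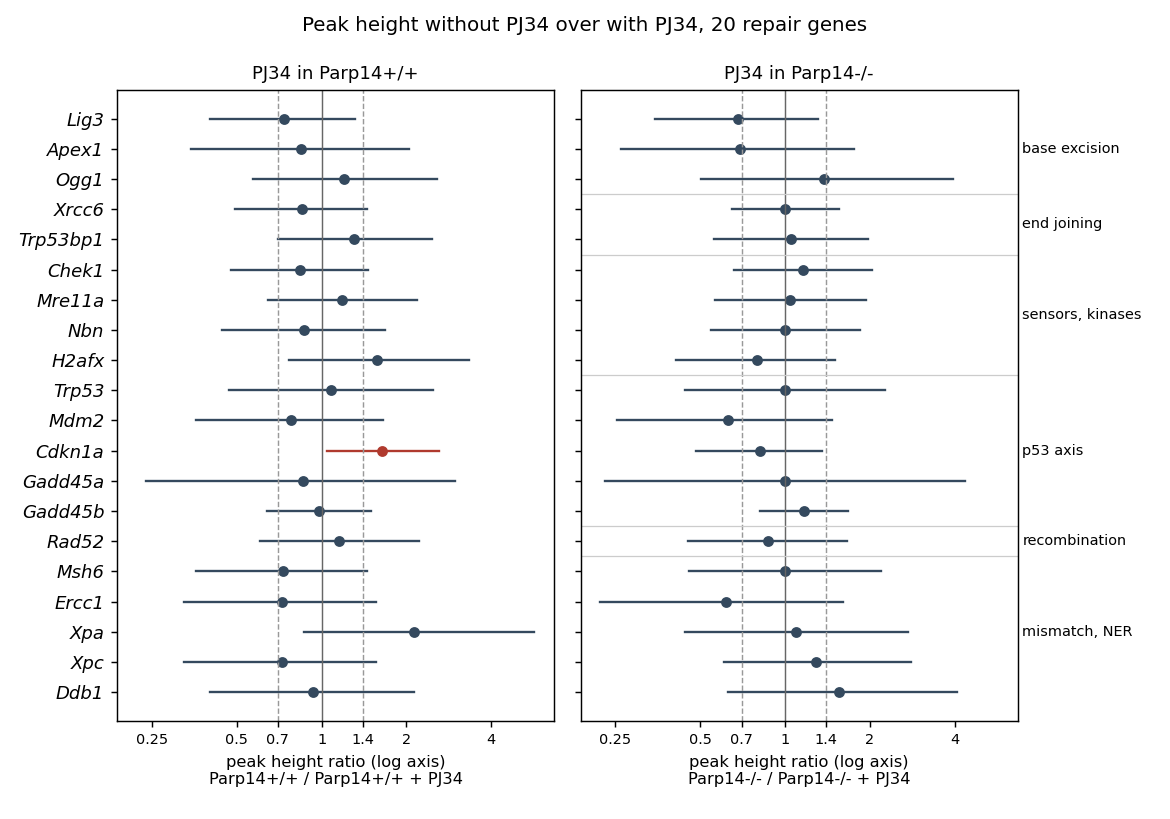
Ratio of the average peak height without PJ34 to that with PJ34 (log axis) for the 20 genes in Parp14+/+ (left) and Parp14-/- (right), with 95% counting intervals as bars and dashed lines at 0.7 and 1.4. The only interval apart from 1, drawn in red, is that of Cdkn1a in Parp14+/+ at 1.64, and in Parp14-/- its ratio is 0.81.

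The next comparison was that of the genotypes without PJ34. Cdkn1a was higher in Parp14+/+, at 54 against 30, whereas Gadd45b was higher in Parp14-/-, at 71 against 47. These were the only 2 of the 20 genes whose interval lay apart from 1, against 2.37% of all genes and 16% of the tall genes. The ratio of Parp14+/+ to Parp14-/- was 1.8 (1.13 to 2.91) for Cdkn1a and 0.66 (0.45 to 0.97) for Gadd45b (chr10:80392836-80394949, plus strand). Both genes act in growth arrest, and their polymerase differed in opposite directions. The ratio of Cdkn1a here and the ratio for PJ34 in Parp14+/+ share the untreated Parp14+/+ library, in which Cdkn1a was at its highest, while the other 3 libraries lay between 30 and 37.

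Past the fold were also Ogg1, Ercc1 and Xpa, higher in Parp14+/+, and Xrcc6, higher in Parp14-/-. Ogg1 (chr6:113277005-113284178, plus strand), the glycosylase that removes oxidised guanine, had heights of 18 and 11 and a ratio of 1.64 (0.732 to 3.83). Xrcc6 (chr15:81846799-81870521, plus strand) had heights of 14 and 22.5 and a ratio of 0.622 (0.374 to 1.02), whose interval just reaches 1. Ercc1 was at 6.5 and 4, and Xpa at 8.5 and 6. In all, 4 of the 20 genes were above the fold and 2 below it, against 14.1% and 13.3% over all genes and 13.2% and 9.05% over those with an interval in a Parp14+/+ library. The median was 1.14, against 1 over all genes and 1.04 over those with an interval. Over all 32 rows 5 were above and 6 below, and the median was 1. Of the 12 genes with heights of their own, 2 were above, Ercc1 and Xpa, and 1 below, Gadd45b.

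With PJ34 in both genotypes, Cdkn1a was at 33 and 37 and its ratio was 0.89 (0.541 to 1.47). Gadd45b was at 48 and 61, again higher in Parp14-/-, with a ratio of 0.787 (0.528 to 1.17). In none of the 20 genes did the interval lie apart from 1, against 2.73% of all genes and 17.9% of the tall genes.

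Ogg1 was at 15 and 8, with a ratio of 1.88 (0.746 to 5.11). It was the only 1 of the 20 genes past the fold the same way in both genotype comparisons, against 6.3% of all genes, and it shares its heights with Camk1. Msh6 (chr17:88374424-88390403, plus strand) was at 22 and 15 and Ddb1 at 14 and 9, both above the fold, and H2afx was below it at 14 and 24 with a ratio of 0.583 (0.279 to 1.17). Xrcc6 was at 16.5 and 22.5, again higher in Parp14-/-, with a ratio of 0.733 (0.453 to 1.18).

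Of the 20 genes 3 were above the fold and 1 was below it, against 22.9% and 7.93% over all genes and 23.5% and 4.56% over those with an interval in a Parp14+/+ library. The median was 0.978 (0.892 to 1.29, by order statistics), against 1.16 over those with an interval and 1.13 over all genes, a shift of the whole table of 0.18 on the log2 scale. With the libraries scaled to remove the shift, 1 gene was above (Ogg1) and 4 were below (Xrcc6, H2afx, Gadd45b and Xpa), and over all genes 13.1% and 15.3%. Msh6 and Ddb1 are therefore past the fold only without this scaling, and Xrcc6, Gadd45b and Xpa only with it. Over all 32 rows 4 were above and 4 below.

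**Figure D3:**
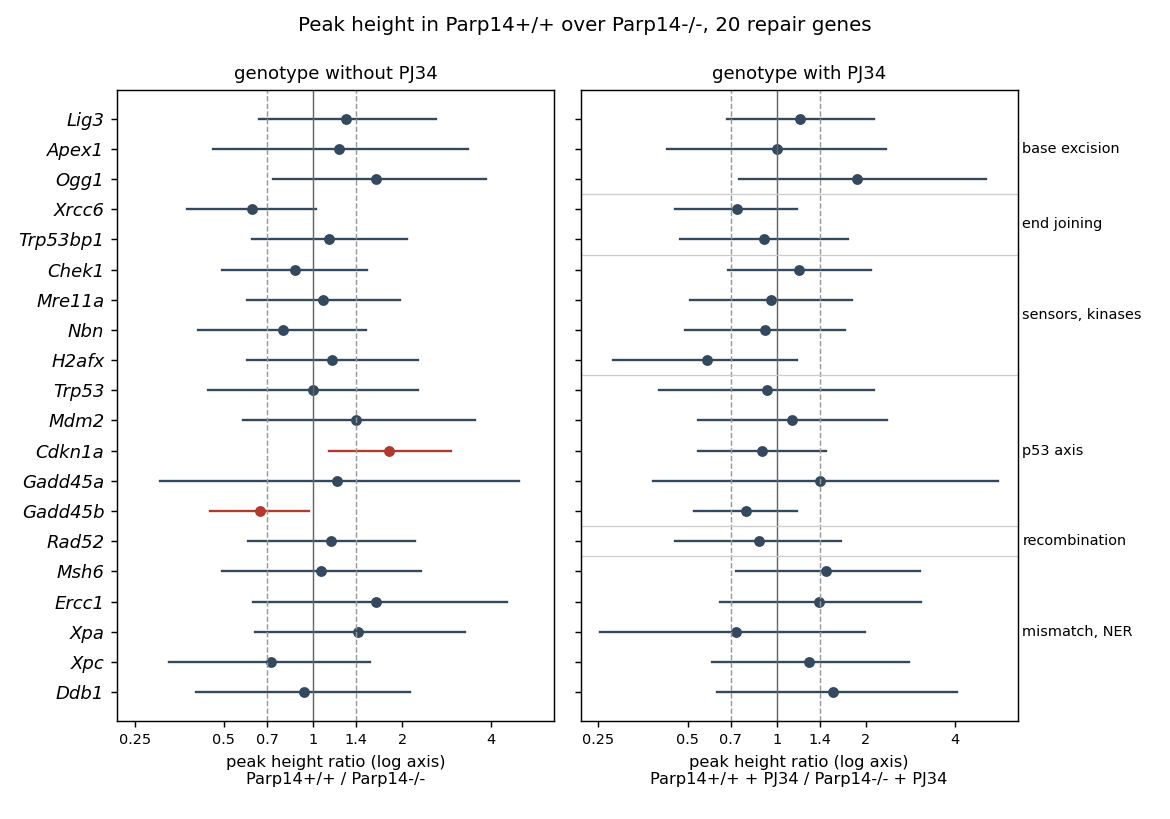
Ratio of the average peak height in Parp14+/+ to that in Parp14-/- (log axis) for the 20 genes without PJ34 (left) and with PJ34 (right), with 95% counting intervals as bars and dashed lines at 0.7 and 1.4. Without PJ34 the intervals of Cdkn1a, at 1.8, and Gadd45b, at 0.66, lie apart from 1 (red), and with PJ34 none does.

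The tracks show where along the genes the polymerase peaked. Over Cdkn1a each library had 1 interval of 8700 to 10950 bp, and its tallest point lay just past the 3′ end, at a distance of 125, 157, 189 and 104 bp in the order of the conditions. The interval ended at the same place in all 4 libraries and reached 3069 bp upstream of the start given in the gene table (29230720) in Parp14+/+ and 2319 bp in Parp14-/-. With PJ34 it reached 1269 and 819 bp upstream. The mm9 annotation starts the gene further upstream, at 29227924, and only the Parp14+/+ interval, which begins at 29227651, reaches past that start. Over Gadd45b the tallest point lay at the start in 3 libraries, 4 bp before it or 28 bp after it, whereas in Parp14+/+ it lay 315 bp past the 3′ end. The summits of H2afx lay within 46 bp of its start, next to the promoter sequence shown above. No interval was called over H2afx in Parp14-/-, although its height there was 19, because a height is read in the active region of the merged libraries whether or not the library has an interval. Likewise neither Parp14-/- library had an interval over Ogg1, where the Parp14+/+ libraries covered 15.3% and 35.6% of the gene with summits near its start.

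**Figure D4:**
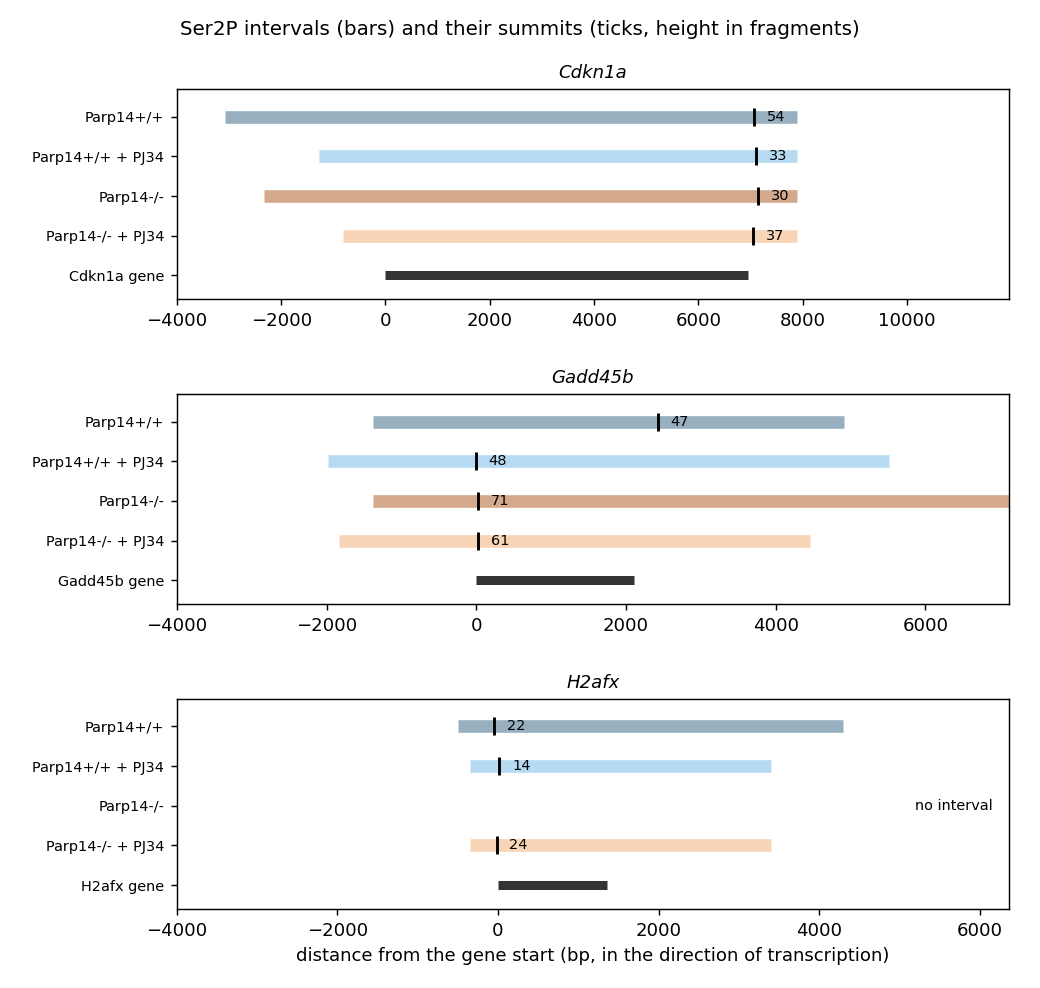
Enriched intervals over Cdkn1a, Gadd45b and H2afx in the 4 libraries, by distance from the gene start of the table (bp); bars are intervals, ticks are their tallest points with the height in fragments, and the dark bar is the gene. The summits of Cdkn1a lie just past the gene end at 54, 33, 30 and 37, and the interval of Gadd45b in Parp14-/- runs on past the right edge.

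The length of gene under an interval is a readout that also reaches genes with no row. An interval lay over 20, 18, 17 and 14 of the 37 genes in the order of the conditions. Over the 21 genes with any interval, 29.7%, 23.9%, 20.8% and 14.4% of the annotated bases were covered, in that order. The same order held for all 7353 protein coding genes with an interval, at 22%, 17.9%, 16% and 14.2%. The median covered share per gene did not follow it among the 21 genes, at 22.7%, 35.6%, 12.1% and 9.88%, and was highest in Parp14+/+ + PJ34. Among all 7353 genes the medians were 23.9%, 16.5%, 9.86% and 8.39%.

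In Parp14-/- the covered length was smaller than in Parp14+/+ for 15 genes of 21 and larger for 1, Polb, against 65.3% smaller over all protein coding genes. With PJ34 it was smaller in Parp14-/- for 13 of 19, against 60.6%. PJ34 went with a smaller covered length for 12 of 20 genes in Parp14+/+, against 56.6%, and for 12 of 18 in Parp14-/-, against 50.9%. The shares of the repair genes, 60% to 71.4%, were higher than those of all genes in each comparison, but rest on 18 to 21 genes and were not tested.

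H2afx was covered over 100%, 100%, 0 and 100% in the order of the conditions, and Ddb1 over 97.5%, 39.6%, 14.6% and 4.35%. The heights of Ddb1 did not follow this order, at 13, 14, 14 and 9. Rad52 was covered over 68%, 47.2%, 68% and 24.1%, and Trp53 over 56.4%, 57.7%, 44.6% and 34.2%. Gadd45b and Msh6 were covered over 100% in all 4 libraries. Gadd45a and Xpc had an interval in Parp14+/+ alone, over 4.7% and 5.46% of the gene, and Polb, the polymerase of base excision repair, had one in the Parp14-/- libraries alone, over 7.11% and 4.74%. Over the annotated gene, Trp53bp1, Mre11a, Nbn and Xpa had an interval in the other 3 libraries and none in Parp14-/- + PJ34. That library had the fewest intervals. With 1 kb added at each end of the gene, Mre11a had 767 bp covered in that library. The gene table called an interval for Mre11a in 4 libraries and for Xpa in 2. Whether an interval is called depends on the signal near a limit, so a missing interval does not show that polymerase is absent.

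**Figure D5:**
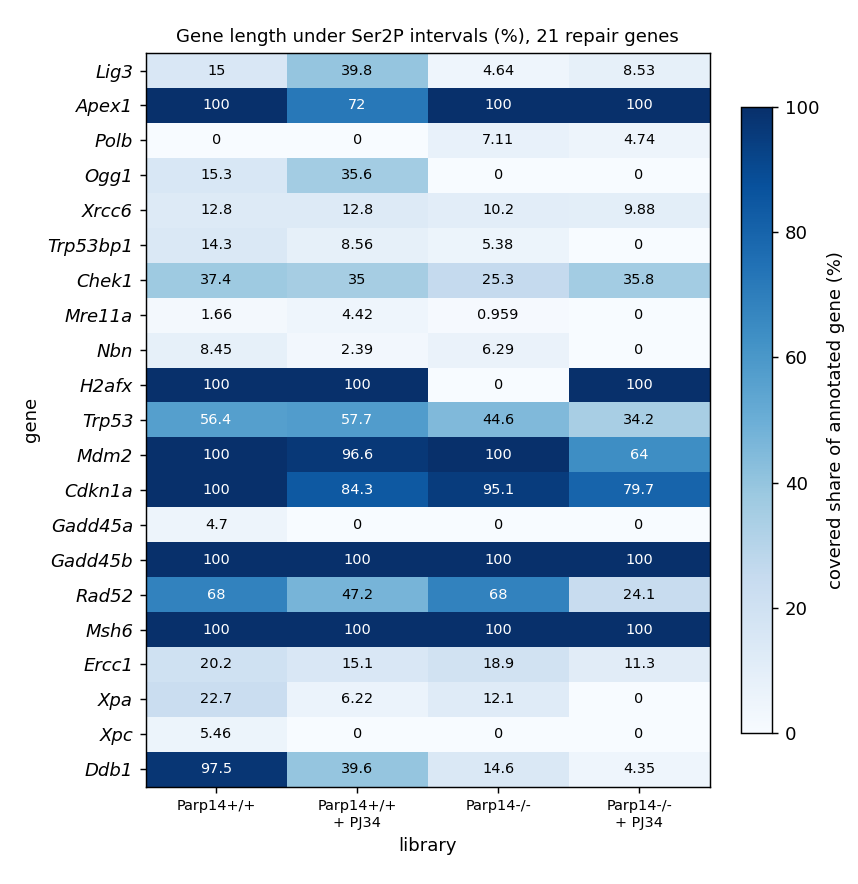
Share of the annotated gene length (%) under enriched intervals for the 21 genes with any interval, 1 column per library. Gadd45b and Msh6 are at 100% throughout, Ddb1 runs from 97.5% to 4.35%, and Parp14-/- + PJ34 has 7 genes at 0.

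Of 101 further genes of the same pathways, 54 had an accepted row. For PJ34 in Parp14+/+ 3 were above the fold and 10 below it, where all genes gave 8.93% and 13.9%, and for PJ34 in Parp14-/- 4 and 5, where all genes gave 16.2% and 8.87%. Between the genotypes 9 were above and 3 below without PJ34, where all genes gave 14.1% and 13.3%, and 18 and 2 with PJ34, where all genes gave 22.9% and 7.93%. Gadd45g, the third gene of the Gadd45 family, was at 19 in Parp14+/+ and at 40, 44 and 39 in the other conditions. Its untreated Parp14+/+ value was thus the lowest where that of Cdkn1a was the highest, with ratios of 0.475 (0.26 to 0.84) for PJ34 in Parp14+/+ and 0.432 (0.238 to 0.755) between the genotypes. Without PJ34, Gadd45b and Gadd45g were both higher in Parp14-/- than in Parp14+/+ by more than counting error, and Gadd45a had a ratio of 1.2 (0.305 to 4.97). With PJ34 this did not hold. Gadd45g was then at 44 in Parp14+/+ and 39 in Parp14-/-, and Gadd45b had a ratio of 0.787 (0.528 to 1.17), whose interval spans 1.

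Rad50, the partner of Mre11a and Nbn in the complex that detects broken ends, was at 27, 21, 12.5 and 10.5. It was lower in Parp14-/- without PJ34, with a ratio of 2.16 (1.32 to 3.62), and with PJ34, with a ratio of 2 (1.16 to 3.56). Rad50 lies next to the Th2 cytokine genes Il13 and Il4, which had like ratios. Il4 was at 61, 39, 29 and 18, with ratios of 2.1 without PJ34 and 2.17 with it, and Il13 at 38, 33, 17 and 10, with ratios of 2.24 and 3.3. The part of these neighbours in the value of Rad50 was not tested. Mre11a, at 8.67, 7.33, 8 and 7.67, and Nbn, at 6.33, 7.33, 8 and 8, had ratios of 0.792 to 1.08 in these comparisons, and no difference was detectable at this depth. Zmat3, a p53 target, was at 9.33, 9.33, 4.67 and 5.33, with a ratio of 2 (1.02 to 4.11) between the genotypes without PJ34. With PJ34, Rad51l1, Eme1 and Sesn2 also had intervals apart from 1, at ratios of 2.09, 1.83 and 2. Of the 54 genes, 3 had such an interval between the genotypes without PJ34 and 4 with it. Over all genes the shares were 2.37% and 2.73%, and over the tall genes 16% and 17.9%. The intervals with PJ34 were not scaled for the shift of the whole table, 0.18 on the log2 scale.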

How the data were processed

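The authors aligned the ChIP-Seq reads to mm9 (ELAND), dropped duplicate reads, brought all libraries to an equal number of alignments and called enriched intervals against Input (SICER). They deposited a signal per gene, the average peak height (tallest fragment pile of each active region, averaged per gene), and for each library the intervals with the height of their tallest point. Active regions were merged over the 8 libraries of the table, and 8 columns of per-sample values belong to libraries not analysed here. The authors set the limits of 1.4 and 0.7 for the ratio of the genotypes and narrower ones for PJ34, and the wider pair was used here for both. Neither Input values per gene nor replicates were used, since there was 1 library per condition, and no p-value is given.

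Heights times active regions were whole within 0.2 for 99.8% of values. Ratios were taken from these sums without a pseudocount, with exact binomial (Clopper-Pearson) 95% intervals, which cover counting error and no difference between cultures. The method was tested on simulated data drawn as independent counts, which is what the intervals assume. Such a test cannot show how the intervals hold for the tallest piles of fragments. Names were accepted by the NCBIM37 (mm9) annotation of GENCODE M1, and RefSeq (GRCm38.p6) gave names of transcript accessions and the promoters, in which 29 of the 37 members were matched. The rule for genes described in detail took those past the fold the same way in both comparisons with PJ34 or both of genotypes, those with an interval apart from 1, and the 5 tallest. The members and lists were chosen with earlier results of these data known. The alternatives were other limits, 1 added to heights, scaling, a minimum height, rows by coordinates and the tallest interval of the tracks. The analysis used Python 3.11.15, numpy 2.4.6, pandas 2.3.3, scipy 1.17.1 and matplotlib 3.10.9.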

Additional observations from a re-analysis of the deposited data

Results flagged for a closer look

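The PJ34 ratio of Cdkn1a differed between the genotypes, with a ratio of ratios of 2.02 and an exact conditional interval of 1.005 to 4.06. Its 4 heights were 54 and 33 in Parp14+/+ without and with PJ34, and 30 and 37 in Parp14-/-. It was the only one of the 20 members with a row of its own whose interval lay apart from 1, against 0.931% of all genes. The share among the tall genes, to which Cdkn1a belongs, was not computed. The comparison was added after the values had been seen. Each height comes from 1 library, and the interval covers counting error only. Cdkn1a shares its active region with LOC100042815, so the values belong to both genes.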

How the results depend on the processing

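No paired analysis was possible because each condition has 1 library, and no library could be left out of a group. The counts of members past the fold were 3, 5, 6 and 4, for PJ34 in Parp14+/+, PJ34 in Parp14-/-, the genotypes without PJ34 and the genotypes with PJ34. They became 9, 9, 11 and 10 with limits of 1.2 and 0.83 (4 above and 5 below, 3 and 6, 7 and 4, and 6 and 4), and 1, 0, 0 and 0 with limits of 2 and 0.5. With a summed height of at least 50 they were 1, 0, 2 and 0, of 1, 1, 2 and 1 genes, which gave medians of 1.64, 1.16 and 0.787 in the first, second and last comparison. With rows accepted by coordinates the counts were 8, 8, 11 and 8, and over members that share their heights with no other gene, an alternative chosen after seeing the data, 1, 2, 3 and 0. Adding 1 to both heights gave 3 for PJ34 in Parp14-/-. The tallest interval of the tracks gave 2 for PJ34 in Parp14-/- (Ddb1 above and Apex1 below) and 7 for the genotypes with PJ34, each of 13 genes. Scaling moved the median between the genotypes with PJ34 from 0.978 to 0.853. The wider promoter window, 1000 bases before to 100 after the start, raised the share of members with a STAT6-type palindrome from 0 to 37.8% (spacer of 3, against 29.6% of all genes) and to 27% (spacer of 4, against 25.3%). Other limits and subsets change a count by their construction, and for the added 1, the scaling and the tracks the cause was not tested. The other 43 values moved by less than 1.5 times or stayed within their interval, and so did 91 ratios of Cdkn1a, Gadd45b, Ogg1, H2afx, Xrcc6 and Msh6, of which the only 1 to change its side of 1 was that of Gadd45b for PJ34 in Parp14+/+, from 0.979 to 1.02 with scaling. Summed heights were under 50 for most members, which limits what a ratio can show.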
